A study of Mus musculus with 19 samples.

Results

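The metallothionein genes Mt1, Mt2 and Mt3 were described in single cells of the mouse medial amygdala. They were chosen by name, with earlier results of these data known. They are 3 of the 16233 genes in a table of all cells and 3 of the 15299 genes in a table that compares tissue dissociation methods. Drop-seq, which catches cells in droplets with barcoded beads and counts transcripts by unique molecular identifiers (UMIs), was run on tissue of male C57BL/6J mice. Act-Seq is a dissociation protocol built to limit transcription while the tissue is taken apart. The groups dissociated by Act-Seq were naive mice (6 libraries, all of 8 weeks), saline-injected mice (1, 8 weeks), seizure-affected mice (2, of 9 and 8 weeks), mice under acute immobilization stress (4) and mice after acute odor exposure (4). The mice of immobilization 2 and 3 and of odor 1 and 2 were 9 weeks old, those of the other libraries of these 2 groups 8 weeks. Conventional dissociation was used for 1 saline and 1 seizure library, both of 8 weeks. All groups were of the same strain, sex and tissue, and the labels name no allele or seizure agent. By the labels, odor libraries served only to sort cells into types, which makes odor an additional comparison here.

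Metallothioneins are small proteins rich in cysteine that bind zinc and copper and take part in buffering these metals and in scavenging reactive oxygen. Mt1 and Mt2 are widely expressed and are known to be induced by metals through the zinc-sensing factor MTF1, by glucocorticoids and by STAT3 signalling. Mt3 is the brain form, first known as growth inhibitory factor, and is not known for strong induction by metals.

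The 3 genes lie on the forward strand of chromosome 8 of mm10 (GRCm38), each with 3 exons in its first GENCODE transcript. Mt3 (ENSMUSG00000031760.9) spans chr8:94152607-94154146, Mt2 (ENSMUSG00000031762.7) chr8:94172664-94173568 and Mt1 (ENSMUSG00000031765.8) chr8:94179082-94180327. The gap is 18517 bp between Mt3 and Mt2 and 5513 bp between Mt2 and Mt1. The antisense gene Gm45774 (chr8:94170748-94173412, reverse strand) overlaps Mt2. No source used here says whether counting used strand, and reads of Mt2 and Gm45774 cannot be told apart.

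The coding sequences are shown because the count of cysteine codons is what the family shares, and because their likeness bears on how reads are assigned. They are read from mm10 along the first GENCODE transcript, 5′ to 3′, with in-frame TGC and TGT (cysteine) codons in capitals. The coding exons lie within chr8:94179311-94180193 for Mt1, chr8:94172848-94173427 for Mt2 and chr8:94152800-94154010 for Mt3.
Mt1: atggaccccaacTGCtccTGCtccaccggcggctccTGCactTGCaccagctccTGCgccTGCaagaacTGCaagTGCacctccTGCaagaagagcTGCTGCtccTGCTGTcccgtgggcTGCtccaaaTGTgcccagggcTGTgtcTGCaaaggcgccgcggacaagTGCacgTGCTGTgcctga
Mt2: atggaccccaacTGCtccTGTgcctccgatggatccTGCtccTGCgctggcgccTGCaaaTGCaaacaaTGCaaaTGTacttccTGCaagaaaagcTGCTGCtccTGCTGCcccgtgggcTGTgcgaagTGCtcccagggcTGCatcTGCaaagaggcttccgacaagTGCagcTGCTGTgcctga
Mt3: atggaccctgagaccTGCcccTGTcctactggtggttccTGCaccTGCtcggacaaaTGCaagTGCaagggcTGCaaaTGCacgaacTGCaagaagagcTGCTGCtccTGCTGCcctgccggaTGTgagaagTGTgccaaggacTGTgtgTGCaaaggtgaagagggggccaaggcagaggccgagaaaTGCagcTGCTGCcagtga
Each gene has 20 cysteine codons, among 61 codons in Mt1, 61 in Mt2 and 68 in Mt3. Mt1 and Mt2 were identical at 148 of 186 aligned bases (79.6%), Mt1 and Mt3 at 66.2% and Mt2 and Mt3 at 67.6%. The longest run shared by the full transcripts was 20 bases for Mt1 and Mt2, 27 for Mt1 and Mt3 and 20 for Mt2 and Mt3. Within the last 200 bases of the transcripts it was 12 bases at most.

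The promoter windows run from 250 bases before to 50 after the RefSeq start and are shown because Mt1 and Mt2 are known to be induced by metals. The part of these sequences in the changes reported below was not tested. Sequences are from RefSeq (GRCm38.p6, forward strand), with the core of the metal response element in capitals (TGCACNC or TGCGCNC, searched on both strands). The windows are chr8:94178839-94179138 for Mt1, chr8:94172368-94172667 for Mt2 and chr8:94152357-94152656 for Mt3.
Mt1: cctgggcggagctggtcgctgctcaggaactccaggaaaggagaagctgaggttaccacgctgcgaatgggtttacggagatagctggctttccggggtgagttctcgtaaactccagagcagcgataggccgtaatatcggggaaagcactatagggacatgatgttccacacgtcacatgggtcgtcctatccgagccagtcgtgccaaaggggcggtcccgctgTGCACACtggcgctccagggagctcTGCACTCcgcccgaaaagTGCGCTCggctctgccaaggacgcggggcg
Mt2: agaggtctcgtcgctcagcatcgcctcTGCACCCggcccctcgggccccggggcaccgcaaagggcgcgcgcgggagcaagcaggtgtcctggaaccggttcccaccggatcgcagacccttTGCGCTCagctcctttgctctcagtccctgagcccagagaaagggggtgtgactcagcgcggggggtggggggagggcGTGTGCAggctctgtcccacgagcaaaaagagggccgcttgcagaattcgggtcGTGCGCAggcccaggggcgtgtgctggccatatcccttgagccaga
Mt3: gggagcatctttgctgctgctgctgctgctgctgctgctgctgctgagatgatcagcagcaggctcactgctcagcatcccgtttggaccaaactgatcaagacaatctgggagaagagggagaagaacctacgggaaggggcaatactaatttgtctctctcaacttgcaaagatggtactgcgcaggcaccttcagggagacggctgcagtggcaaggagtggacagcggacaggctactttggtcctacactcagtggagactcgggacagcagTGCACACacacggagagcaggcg
The core matched 3 times in the Mt1 window, 4 times in that of Mt2 and 1 time in that of Mt3. Of 27025 promoter windows of the same length, 25.6% held at least 1 match, 2.0% at least 3 and 0.503% at least 4. The GC box GGGCGG matched 3 times in Mt1 (35.9% of windows hold it), and the antioxidant element core TGACNNNGC matched 1 time in Mt2 (12.5% of windows). The glucocorticoid receptor half-site AGAACA (19.0% of windows), the STAT core TTCNNNGAA (8.47%) and the TATA box TATAAA (14.2%) matched in none of the 3 windows. Sites farther than 250 bases before or 50 bases after the RefSeq start were not searched. GENCODE has later starts for each gene, up to 152 bases downstream in Mt1, 242 in Mt2 and 139 in Mt3, so the windows do not cover every start.

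The all-cell table held 20679 cells and 35709950 UMIs in 16 Act-Seq libraries of 43 to 2189 cells, with a median of 1222 UMIs per cell, and 3 libraries (naive 5, naive 6 and immobilization 4) had under 300 cells. Naive 6 had no class with at least 10 cells, so naive values below are over 5 libraries or fewer. The authors' classes each expressed all of their own fixed markers. By astrocyte markers the neuron class stood apart. These 8 markers summed to 28630 CPM (counts of a gene scaled to all UMIs of the class in a library) in astrocytes and 14610 CPM in the cells of the neuron table. In the other non-astrocyte classes outside the neuron class they summed to 942.3 to 1706 CPM. Markers of other cell types were found in further classes. Oligodendrocyte markers summed to 17120 CPM in oligodendrocyte precursors, whose own summed to 7027 CPM. Endothelial cells held 13140 CPM of erythrocyte and 5314 CPM of mural markers, and mural cells 4905 CPM of fibroblast markers. The part of such cells or transcripts in the metallothionein values was not tested. All 2444 cells of the neuron table were taken as neurons, of which 2293 were of the authors' neuron class and 125 of their astrocyte class. Astrocytes and the other classes below leave out the cells of the neuron table. Cells of the authors' neuron class that are not in their neuron table were kept as a class of their own, with 16360 CPM of astrocyte markers. The dissociation table held 8071 cells and 16872067 UMIs in 5 libraries. Its 1777 and 1123 cells of seizure 1 and 2 had counts identical to cells of these libraries in the all-cell table, though under other barcodes, so the seizure libraries of both tables are not independent. The all-cell libraries shared at most 2 barcodes, and 1115 barcodes of the conventional saline library recur in seizure 1. The labels do not tie libraries to separate animals, so a p-value measures only how these libraries spread, and that spread may be technical.

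Metallothionein transcripts made up a visible part of all UMIs, with 0.607% from Mt1 (216820 UMIs), 0.214% from Mt2 (76510) and 0.117% from Mt3 (41609). Counts were not scaled to transcript length, so the levels of each gene are compared across cells and samples and not with those of another gene. In astrocytes the Mt1 level was 8886 ± 2013 CPM (SD, n = 15 libraries). The Mt2 level was 3594 ± 1216 CPM and the Mt3 level 1650 ± 257.1 CPM. Cells of the neuron table and the neuron class outside it were close behind or level with astrocytes. Every other class was far lower for all 3 genes, as the plot of levels by class and library shows.

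**Figure D1:**
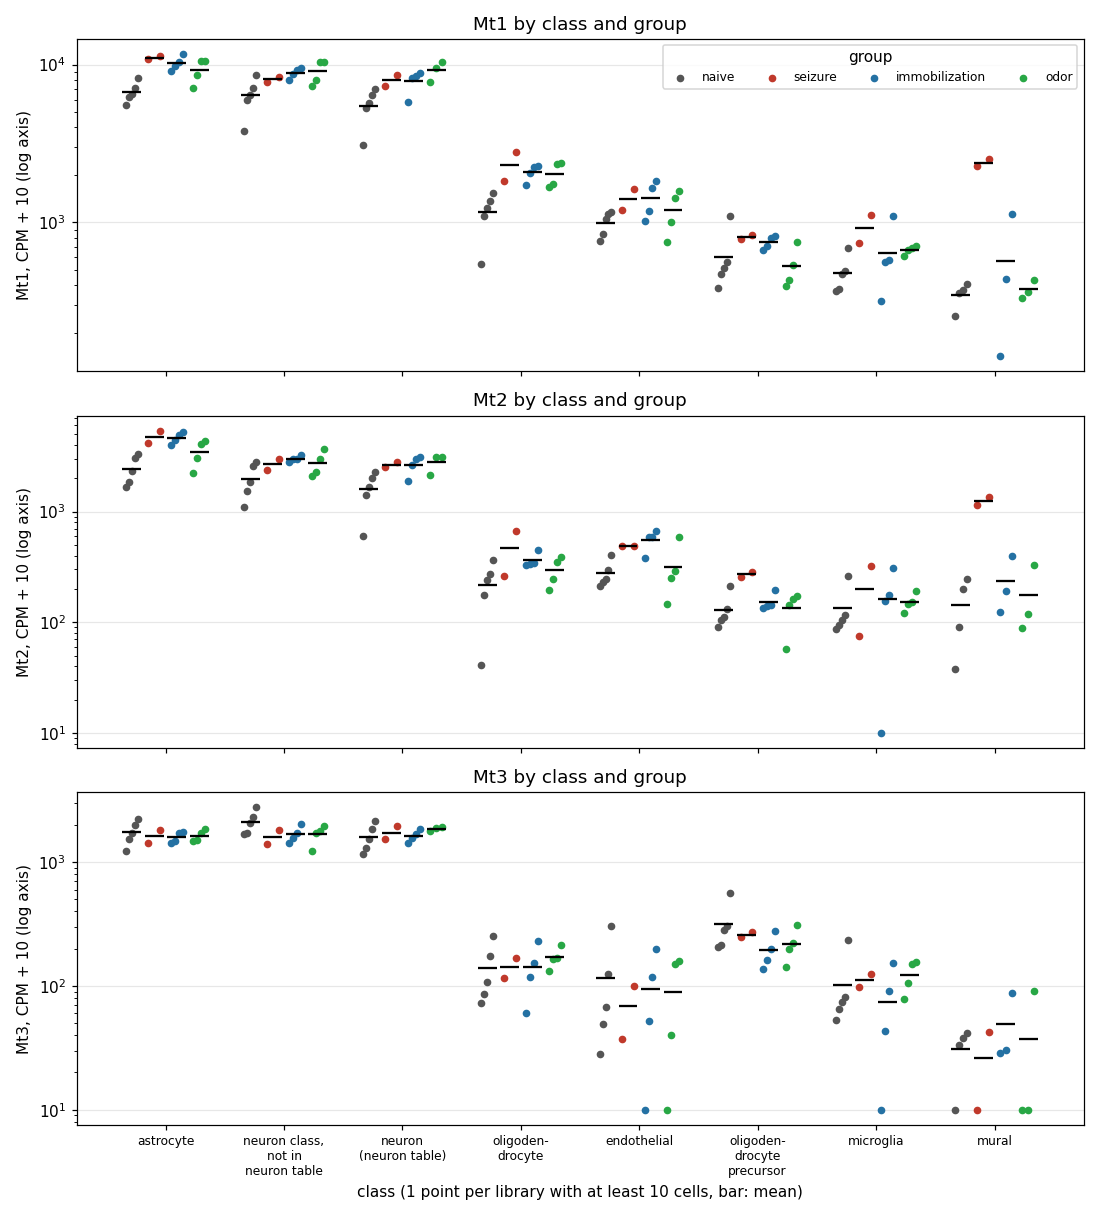
Level of Mt1, Mt2 and Mt3 as CPM + 10 on a log axis, by cell class, with 1 point per Act-Seq library coloured by group and a bar at each group mean. Astrocytes, cells of the neuron table and the neuron class outside it sit above all other classes for the 3 genes. Mural cells hold 2 seizure libraries far above their other libraries for Mt1 and Mt2.

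Ordered by their mean log2 level, the classes ran for Mt1 from astrocytes to the neuron class outside the neuron table (7977 ± 1738 CPM, n = 15), neurons of the neuron table (7307 ± 1941 CPM, n = 14), oligodendrocytes (1781 ± 583.2 CPM, n = 15), endothelial cells (1209 ± 338.7 CPM, n = 15), oligodendrocyte precursors (641.1 ± 201.2 CPM, n = 15), microglia (623.7 ± 234.8 CPM, n = 15) and mural cells (741.5 ± 804.7 CPM, n = 12). Neighbours in this order were compared within libraries by an exact sign-flip permutation test, two-sided, on log2(CPM + 10), adjusted over 21 pairs of the 3 genes, and 12 passed. Astrocytes exceeded the neuron class outside the table by 0.16 on the log2 scale (12 of 15 libraries, exact permutation test, adjusted p = 0.0107). Neurons exceeded oligodendrocytes by 2.07 (14 of 14 libraries, adjusted p = 0.00051), oligodendrocytes exceeded endothelial cells by 0.51 (13 of 15, adjusted p = 0.0107) and endothelial cells exceeded precursors by 0.92 (14 of 15, adjusted p = 0.00051). Mt1 levels of precursors, microglia and mural cells did not differ beyond the spread between libraries (adjusted p = 0.728 and 0.378 for the neighbouring pairs).

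For Mt2 astrocytes stood above the neuron class outside the table (2540 ± 684.8 CPM) in 15 of 15 libraries, by 0.47 on the log2 scale (exact permutation test, adjusted p = 0.00051). Neurons of the table (2296 ± 742.4 CPM) exceeded endothelial cells (380.5 ± 166.1 CPM) by 2.50 in 14 of 14 libraries. Endothelial cells, oligodendrocytes (300.5 ± 140.6 CPM), mural cells (349 ± 429 CPM), precursors (146 ± 61.22 CPM) and microglia (145.1 ± 87.15 CPM) were not told apart from their neighbours in Mt2. For Mt3, the brain form, the neuron class outside the table (1804 ± 384.4 CPM), neurons (1683 ± 279.9 CPM) and astrocytes did not differ in the mean beyond the spread (exact permutation test, adjusted p = 0.302 and 0.937). The neuron class outside the table exceeded neurons in 6 of 14 libraries. Neurons exceeded astrocytes in 12 of 14 libraries, though the mean log2 difference was 0.01. Astrocytes exceeded precursors (239.5 ± 102.8 CPM) in Mt3 by 2.81 in 15 of 15 libraries, precursors exceeded oligodendrocytes (138.3 ± 56.86 CPM) by 0.77, and oligodendrocytes exceeded microglia (91.36 ± 55.58 CPM) by 0.71. Mt3 was lowest in mural cells (26.11 ± 27.89 CPM), below endothelial cells by 1.75 on the log2 scale in the mean over 12 libraries, with endothelial cells above in 8 of them (exact permutation test, adjusted p = 0.0299). Within the naive libraries alone 0 of the pairs passed, and 5 libraries cannot give an unadjusted exact p below 0.0625.

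Neuron levels of the metallothioneins moved with astrocyte markers. Among the 16 neuron clusters named by the authors, N12 had 61710 CPM of Meg3, a long noncoding RNA of neurons, and 1701 CPM of Mt1, 411.9 CPM of Mt2 and 469.6 CPM of Mt3. N9, with 10550 CPM of Meg3, had 2028 CPM of Mt1, 619.6 CPM of Mt2 and 540.1 CPM of Mt3. In these 2 clusters astrocyte markers summed to 2369 and 2929 CPM and neuron markers, Meg3 among them, to 79030 and 22440 CPM. N10 and N11 had 5808 and 5381 CPM of Mt1, and the other 12 clusters 7348 to 9379 CPM, with astrocyte markers at 14330 to 17550 CPM. Over the 16 clusters, which share libraries, Pearson's r with the astrocyte marker sum was 0.993 for Mt1, 0.971 for Mt2 and 0.937 for Mt3 (Spearman's rho 0.932, 0.838 and 0.709), given as a description. The part of astrocyte transcripts in the neuron values was not tested, and neuron levels below are given on that footing.

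**Figure D2:**
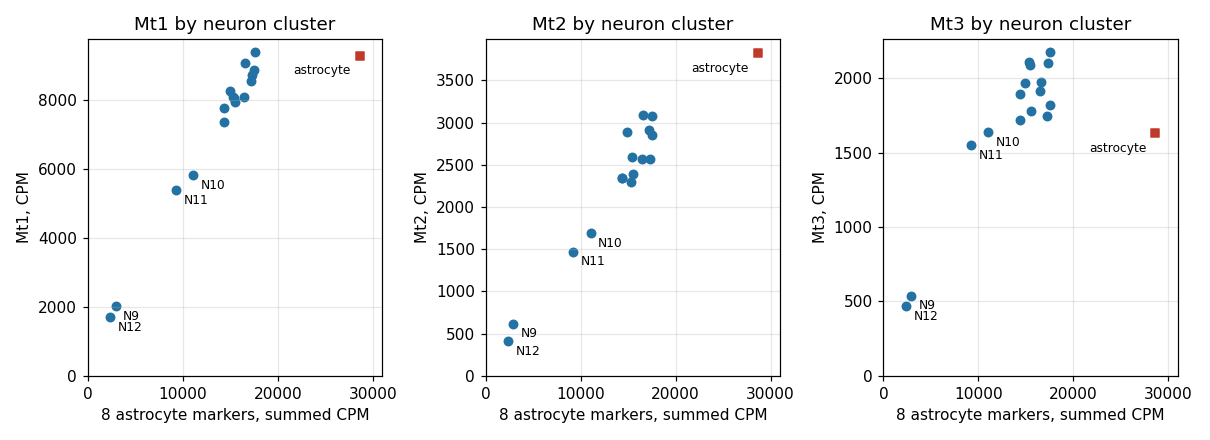
Mt1, Mt2 and Mt3 in CPM against the summed CPM of 8 astrocyte markers, with 1 point for each of the 16 neuron clusters and 1 for the astrocytes outside the neuron table. Clusters N9 and N12 sit lowest on both axes, with Mt1 at 2028 and 1701 CPM.

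Ratios to Slc1a2, the main glutamate transporter of astrocytes, were compared within libraries. The median ratio of Mt1 to Slc1a2 counts was 1.48 in astrocytes, 1.63 in neurons (above astrocytes in 11 of 14 libraries) and 1.71 in the neuron class outside the table (12 of 15 libraries). It was 4.65 in oligodendrocytes and 4.59 in endothelial cells, above the astrocytes of the same library in 15 of 15 libraries for both classes. The ratio of Mt3 to Slc1a2 counts was 0.289 in astrocytes, 0.375 in neurons (above astrocytes in 14 of 14 libraries) and 0.374 in the neuron class outside the table (15 of 15 libraries), and it was highest in oligodendrocyte precursors, at 0.407 (14 of 15 libraries). For Mt2 the ratio was 0.645 in astrocytes and 0.507 in neurons, which exceeded astrocytes in 1 of 14 libraries.

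Mt1 and Mt2 were higher in astrocytes after seizure and after immobilization than in naive mice, whereas Mt3 did not change past the threshold in any class. Counts were summed per library and class and tested across all genes with edgeR's quasi-likelihood test, with Benjamini-Hochberg adjusted p-values and a threshold of 0.05. Of 24 pairs of a class and a metallothionein, 23 passed the filter on low counts, the exception being Mt3 in mural cells. After seizure 6 of the 23 tested pairs were higher and none lower, where 0.278% of all class and gene pairs changed. After immobilization 4 of 23 were higher, against 0.782% of all pairs, and after odor exposure 2 of 23, against 0.253%. All calls were of Mt1 or Mt2: of 21 tests of Mt3 against naive 0 passed in edgeR, 1 had an unadjusted p under 0.05 and 0 passed in DESeq2. The 3 comparisons share the naive libraries, so their values are given side by side and not as independent results.

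**Figure D3:**
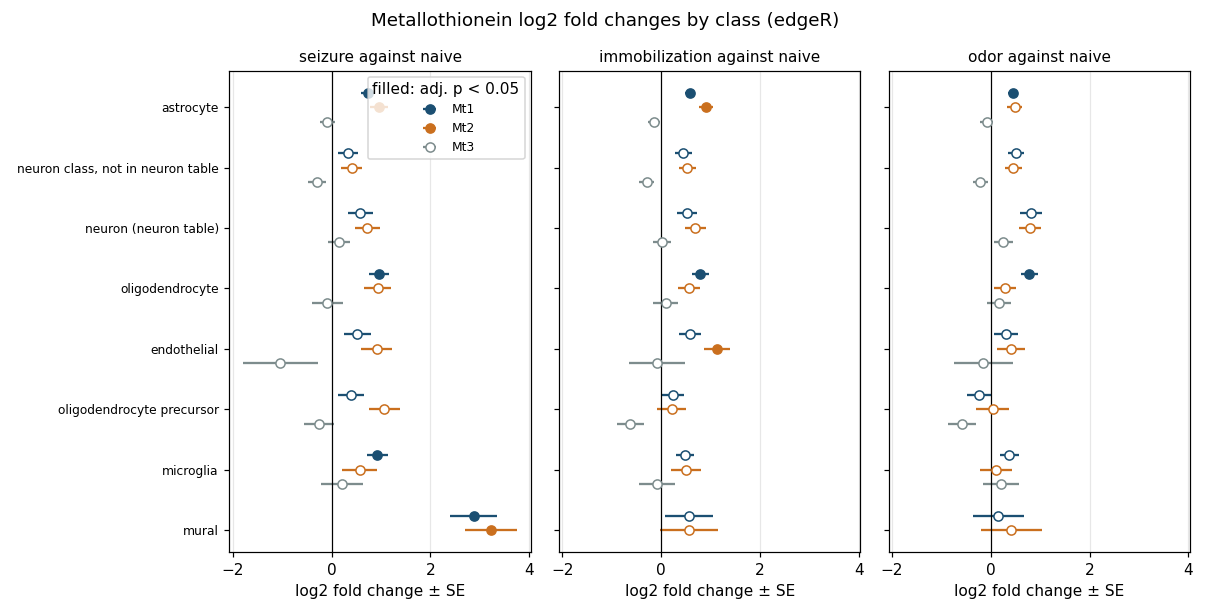
Log2 fold change against naive of Mt1, Mt2 and Mt3 in each class after seizure, immobilization and odor exposure, with bars of 1 standard error from edgeR; filled points passed adjusted p 0.05. All filled points lie above 0 and belong to Mt1 and Mt2, with mural cells after seizure at 2.88 and 3.23.

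In astrocytes the Mt1 level in naive libraries 1 to 5 was 6246, 8179, 6474, 7112 and 5516 CPM. It was 11286 and 10833 CPM in seizure 1 and 2, and 9080, 11661, 10313 and 9756 CPM in immobilization 1 to 4. The odor libraries had 8596, 10560, 10570 and 7113 CPM. All seizure and immobilization libraries lay above the highest naive library, and odor 4 lay within the naive range. The naive mean was 6705 ± 1002 CPM (SD, n = 5), and edgeR gave a log2 fold change of 0.73 ± 0.13 (SE) after seizure (1.66-fold, adjusted p = 0.000707), 0.58 ± 0.11 after immobilization (1.5-fold, adjusted p = 0.000516) and 0.45 ± 0.11 after odor (1.37-fold, adjusted p = 0.0252). The sum of astrocyte markers in the same cells was 29020 ± 1567 CPM in naive, 27700 ± 1140 CPM in seizure, 29490 ± 979.3 CPM in immobilization and 27920 ± 828.6 CPM in odor libraries. The odor call was lost with age as a covariate (edgeR adjusted p = 0.262), without the libraries of under 300 cells (0.0906), with the authors' whole neuron class, in place of the cells of the neuron table, which returns 151 cells to other classes (0.0854), and without naive 1, 3 or 5 or odor 1, 2 or 3 (0.0501 to 0.259). Its log2 fold change stayed at 0.36 to 0.56 over all alternatives. Age and odor cannot be fully told apart, since all naive mice were of 8 weeks.

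Mt2, the isoform usually induced together with Mt1, had levels of 2294, 3315, 1821, 3059 and 1669 CPM in the astrocytes of naive libraries 1 to 5. It had 5368 and 4129 CPM after seizure, 3952, 5247, 4940 and 4449 CPM after immobilization and 3059, 4066, 4335 and 2209 CPM after odor exposure. Seizure and immobilization libraries again lay above all naive ones, and odor 1 and 4 within their range. The log2 fold change was 0.97 ± 0.18 after seizure (1.95-fold, edgeR adjusted p = 0.00103) and 0.91 ± 0.15 after immobilization (1.88-fold, edgeR adjusted p = 7.38e-05). After odor it was 0.49 ± 0.15 and did not pass (edgeR adjusted p = 0.144). Seizure and immobilization did not differ in astrocytes beyond the spread, with direct differences of 0.15 ± 0.14 for Mt1 and 0.06 ± 0.19 for Mt2 (edgeR adjusted p = 0.999 for both). The seizure call of Mt2 was lost without seizure 1 (0.79, edgeR adjusted p = 0.209) and with DESeq2 (0.97, adjusted p = 0.255).

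Mt3 in astrocytes was at 1537, 1221, 1982, 1723 and 2228 CPM in the naive libraries, which span all values of the other groups. The seizure libraries had 1808 and 1416 CPM, the immobilization libraries 1461, 1757, 1408 and 1702 CPM and the odor libraries 1699, 1505, 1832 and 1466 CPM. Log2 fold changes of Mt3 were -0.09 ± 0.15, -0.15 ± 0.12 and -0.09 ± 0.12 after seizure, immobilization and odor (edgeR adjusted p = 0.979, 0.788 and 0.927). Whether Mt1 and Mt3 responded unequally was tested on the ratio of their levels per library. In astrocytes log2 of the Mt1 to Mt3 ratio was 1.96 ± 0.53 in naive (SD, n = 5), 2.78 ± 0.21 in seizure (n = 2), 2.68 ± 0.15 in immobilization (n = 4) and 2.48 ± 0.24 in odor libraries (n = 4). After immobilization the exact permutation p was 0.0397, adjusted 0.245 over 24 tests. None of the 24 tests passed after adjustment, and for 2 seizure and 5 naive libraries the smallest possible exact p is 0.0476. An unequal response was not shown.

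Mt1 UMIs per astrocyte were also counted cell by cell. With every cell thinned to 600 UMIs, Mt1 was seen in 90.5 ± 3.92% of naive astrocytes (SD, n = 5 libraries), 98.8 ± 0.065% of seizure astrocytes (n = 2), 96.3 ± 1.31% of immobilization astrocytes (n = 4) and 96.6 ± 1.39% of odor astrocytes (n = 4), with no test. Without thinning the naive share was 96.7%. The mean number of Mt1 UMIs per thinned astrocyte was 3.65 ± 0.67 in naive, 6.37 ± 0.09 in seizure, 5.75 ± 0.64 in immobilization and 5.03 ± 0.76 in odor libraries. The 10th, 50th and 90th percentiles over cells, averaged over libraries, were 0.60, 3 and 7.26 Mt1 UMIs in naive, 2, 6 and 11.7 in seizure, 1.75, 5 and 10.5 in immobilization and 1.25, 4.50 and 9.75 in odor libraries. All 3 percentiles were higher in each stimulated group than in naive, with no test. Mt2 was seen in 64.4 ± 11.7% of thinned naive astrocytes, 86.0 ± 6.89% after seizure, 85.7 ± 4.91% after immobilization and 73.8 ± 7.78% after odor. Mt3 was seen in 53.3 to 55.9% of astrocytes in all 4 groups. For comparison, thinned naive microglia held an Mt1 UMI in 17.2 ± 5.19% of cells and an Mt3 UMI in 4.86 ± 2.25%. Across astrocytes within a library, Pearson's r of Mt1 with Mt2 had a median of 0.342 over 15 libraries (0.254 to 0.423), Mt1 with Mt3 0.172 and Mt2 with Mt3 0.147, given as a description since cells of a library share its depth.

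**Figure D4:**
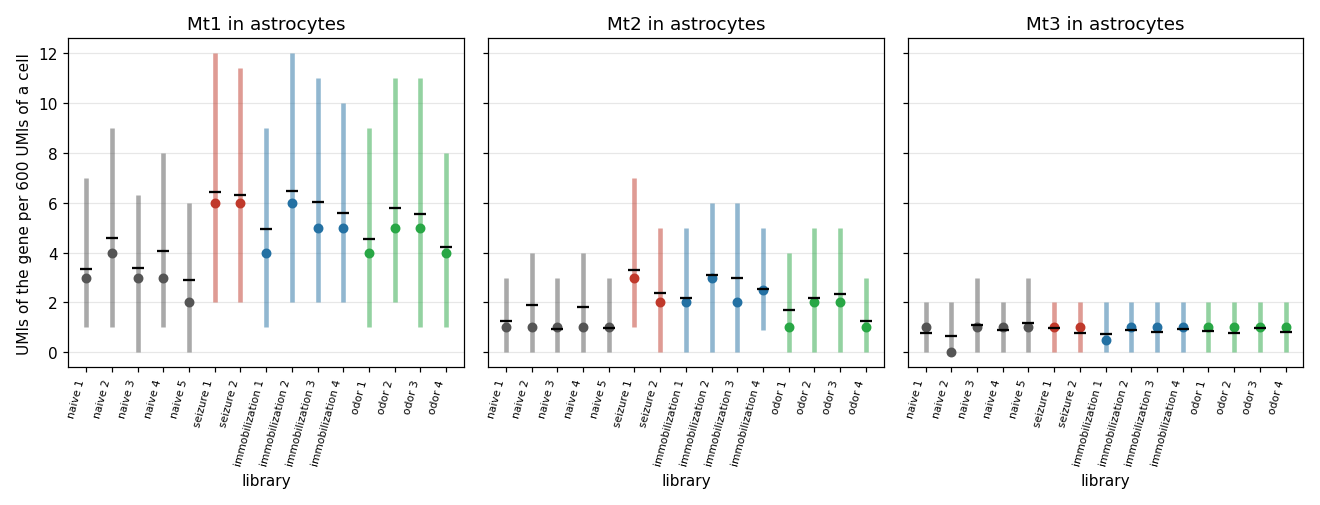
UMIs of Mt1, Mt2 and Mt3 per astrocyte thinned to 600 UMIs, by library and coloured by group; points are medians over cells, dashes are means and bars leave out the lowest and the highest 10% of cells. Means of Mt1 average 3.65 in naive and 6.37 in seizure libraries, and the bars of Mt3 overlap in all 4 groups.

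Oligodendrocytes, the myelin-forming cells, also had more Mt1 after all 3 stimuli. Naive libraries 1 to 5 had 1366, 1526, 1225, 1092 and 532 CPM, seizure 2775 and 1809 CPM, immobilization 2239, 2263, 2037 and 1728 CPM and odor 1679, 2349, 2368 and 1731 CPM. Every stimulated library lay above every naive one. The log2 fold changes were 0.96 ± 0.21 after seizure (1.94-fold, edgeR adjusted p = 0.0254), 0.79 ± 0.17 after immobilization (1.73-fold, adjusted p = 0.00723) and 0.78 ± 0.17 after odor (1.71-fold, adjusted p = 0.0155), where 0.134%, 0.9% and 0.524% of oligodendrocyte genes changed. Astrocyte markers in these cells summed to 1441 ± 721.5 CPM in naive, 1680 ± 110.3 CPM in seizure, 1729 ± 550.4 CPM in immobilization and 1679 ± 147.4 CPM in odor libraries, and their part in the result was not tested. With age as a covariate all 3 calls were lost (edgeR adjusted p = 0.266, 0.103 and 0.0942), the seizure call also without seizure 1 (0.999) or with only these 2 groups in the fit (0.103), and the odor call without odor 2 (0.0778) or odor 3 (0.132). Over all alternatives the log2 fold change stayed at 0.65 to 1.24 after seizure, 0.63 to 0.91 after immobilization and 0.66 to 0.89 after odor.

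The mural class had the largest fold changes of Mt1 and Mt2 among the tested classes, all after seizure. Markers of mural cells, the pericytes and smooth muscle of vessels, summed to 28460 CPM in this class, and fibroblast markers to 4905 CPM. Which of these cell types held the metallothionein UMIs was not tested. Mt1 was at 365, 397, 244 and 345 CPM in naive libraries 1 to 4 and at 2260 and 2504 CPM in seizure 1 and 2. Mt2 was at 28, 234, 81 and 188 CPM in naive and at 1343 and 1127 CPM in seizure libraries. The log2 fold changes were 2.88 ± 0.48 for Mt1 (7.34-fold, edgeR adjusted p = 0.00221) and 3.23 ± 0.52 for Mt2 (9.38-fold, edgeR adjusted p = 0.00221), where 0.686% of mural genes changed. These values rest on few cells and few UMIs. Seizure 1 had 24 mural cells with 69 UMIs of Mt1, 22 of them in 1 cell, and seizure 2 had 21 cells with 60 UMIs, 43 of them in 1 cell. Without the top cell the Mt1 level was 1580 CPM in seizure 1 and 799.7 CPM in seizure 2, and 128.1 to 346.4 CPM in the naive libraries treated alike. Astrocyte markers in mural cells summed to 823.9 ± 192.3 CPM after seizure and 1253 ± 385.8 CPM in naive libraries.

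Immobilization and odor did not move Mt1 in mural cells past the threshold, with 426, 132 and 1125 CPM in immobilization 1 to 3 and 324, 423 and 353 CPM in odor 1 to 3. The direct contrast of seizure with immobilization gave 2 calls among the 23 tested pairs, against 0.122% of all pairs, both in mural cells. Mt1 was higher after seizure by 2.31 ± 0.50 (edgeR adjusted p = 0.0440) and Mt2 by 2.66 ± 0.53 (edgeR adjusted p = 0.0404), where 0.49% of mural genes differed. Both calls were lost with age as a covariate, without immobilization 1 or 2, without odor 1 or 3 and without seizure 1 or 2, the Mt1 call also without naive 1 or 2 or odor 2, with adjusted p up to 0.548 for Mt1 and 0.314 for Mt2. The log2 fold changes stayed at 1.70 to 3.17 for Mt1 and 2.23 to 3.12 for Mt2 over all alternatives. Whether mural cells responded to seizure more than astrocytes was tested within libraries: the gap between the classes moved by 2.14 for Mt1 and 2.56 for Mt2, with an exact permutation p of 0.0667 for both, the smallest that 2 against 4 libraries allow, and an adjusted p of 0.5. None of the 63 such comparisons of classes passed after adjustment.

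In microglia, the resident immune cells, Mt1 was at 485, 677, 460, 371 and 360 CPM in naive libraries and at 1110 and 729 CPM after seizure. Its log2 fold change after seizure was 0.93 ± 0.22 (1.91-fold, edgeR adjusted p = 0.0161), where 0.431% of microglia genes changed. The call was lost without seizure 1 (0.59, edgeR adjusted p = 0.910), without naive 4 (0.0647), with the authors' whole neuron class (0.103) and with DESeq2 (0.978). Immobilization libraries spread from 308 to 1096 CPM of Mt1 in microglia and odor libraries from 601 to 701 CPM, without a call. Astrocyte markers summed to 1510 ± 459.9 CPM in seizure and 1047 ± 306.5 CPM in naive microglia, and their part in the result was not tested.

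In endothelial cells, which line the vessels, Mt2 was at 203, 234, 219, 287 and 393 CPM in naive and at 653, 584, 370 and 575 CPM in immobilization libraries. Immobilization 3 lay below naive 5 and the other immobilization libraries above all naive ones. The log2 fold change was 1.14 ± 0.26 (2.2-fold, edgeR adjusted p = 0.0108; 1.76% of endothelial genes changed), lost without immobilization 1 (1.04, edgeR adjusted p = 0.0570) or immobilization 2 (1.09, edgeR adjusted p = 0.0531). After seizure the endothelial Mt2 level was 480 and 477 CPM, with a log2 fold change of 0.91 ± 0.31 that did not pass (edgeR adjusted p = 0.390). Endothelial Mt1 did not pass in any contrast, with 0.52 ± 0.28, 0.59 ± 0.23 and 0.31 ± 0.23 after seizure, immobilization and odor.

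In neurons of the neuron table the log2 fold changes of Mt1 were 0.59 ± 0.25, 0.52 ± 0.20 and 0.81 ± 0.22 after seizure, immobilization and odor, and those of Mt2 were 0.72 ± 0.26, 0.69 ± 0.21 and 0.79 ± 0.23. None of the 6 passed (edgeR adjusted p = 0.153 to 0.999; 6 had an unadjusted p under 0.05, and DESeq2 called 0), and 0.0795% to 0.125% of all genes tested in neurons did in these contrasts. Naive neurons had 5477 ± 1494 CPM of Mt1 and odor neurons 9240 ± 1354 CPM, while their astrocyte markers summed to 12830 ± 1902 and 14930 ± 1198 CPM. In oligodendrocyte precursors 0 of 9 tests passed (2 with an unadjusted p under 0.05, and 0 calls by DESeq2), and Mt2 after seizure had a log2 fold change of 1.07 ± 0.31 (edgeR adjusted p = 0.288).

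Lists of genes tied to metallothionein control were looked at in astrocytes. They were drawn up with earlier results of these data known, so their counts are not ranked against each other. The part of any list in the changes of Mt1 and Mt2 was not tested. Of 17 tested genes known to respond to glucocorticoids, 11 rose after immobilization. Their median log2 fold change was 1.30 against -0.02 over all astrocyte genes, of which 1.51% changed. After seizure 6 of 17 rose (median 0.85; 0.466% of astrocyte genes changed) and after odor 6 of 17 (median 0.86; 0.656%). Tsc22d3, a glucocorticoid-induced leucine zipper, rose by 1.54 ± 0.21 after seizure, 2.02 ± 0.18 after immobilization and 1.59 ± 0.18 after odor. Fkbp5, which binds the glucocorticoid receptor complex, rose by 3.61 ± 0.38 after immobilization and 2.92 ± 0.41 after odor, and was lower after seizure than after immobilization by 2.03 (-2.03 ± 0.39, edgeR adjusted p = 0.00479). Nfkbia, the inhibitor of NF-kappaB, rose by 1.57 ± 0.19 after seizure, 1.87 ± 0.16 after immobilization and 1.00 ± 0.17 after odor. Dusp1, a phosphatase of MAP kinases, rose by 2.99 ± 0.40 after seizure.

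Of the zinc list, 18 genes were tested in astrocytes, and the only call among the 3 contrasts with naive was Slc30a10, a zinc and manganese exporter, which fell after immobilization (148.4 ± 17.47 CPM in naive and 89.97 ± 21.69 CPM in immobilization libraries, log2 fold change -0.64 ± 0.16, edgeR adjusted p = 0.0180). Mtf1, the metal-sensing factor, and Slc30a1, a zinc exporter that it is known to induce, were among those tested without a call, with 27.97 and 45.27 CPM in naive astrocytes. Of 10 genes of copper handling none passed in 30 tests in astrocytes, 0 of them at an unadjusted p under 0.05, and of 17 genes of the NRF2 oxidative stress response none passed in 51 tests, 6 of them at an unadjusted p under 0.05. Of 7 tested genes of a list of STAT3 and reactive glia genes, Cebpb, a transcription factor, rose after immobilization (1.40 ± 0.35, edgeR adjusted p = 0.0231), and none passed after seizure or odor. DESeq2 called 0 genes in each of these 4 lists, Slc30a10 and Cebpb included.

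Over the 15 libraries with enough astrocytes, the gene whose log2 level was most like that of Mt1 was Mt2 (Pearson's r = 0.954), followed by Nfkbia (0.909), Tsc22d3 (0.838), Ifrd1 (0.83) and Klf15 (0.823), among 3927 genes with at least 50 CPM. The genes most like Mt2 were Mt1, Nfkbia (0.915), Ifrd1 (0.867), Slc35e4 (0.861) and Tob2 (0.841). Those most like Mt3 were the ribosomal protein genes Rpl22 (0.912), Rplp2 (0.881), Rpl26 (0.856) and Rpl29 (0.816) and Snrpd2 (0.9), which codes for a spliceosome protein. Mt1 and Mt3 had r = -0.295 over the same libraries and Mt2 and Mt3 r = -0.332. The likeness is a description over libraries that differ in group and depth.

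Conventional dissociation gave higher Mt1 and Mt2 in astrocytes and far lower levels of all 3 genes in neurons than Act-Seq. Cells of this table carry no author class, and each was assigned the class whose profile in the all-cell table made its counts most likely. Of the seizure cells known from both tables, all from Act-Seq libraries, 96.52% got the authors' class. The assignment of conventional cells could not be checked, since none of them is in the all-cell table. Method and seizure entered 1 fit of the 5 libraries, which left 2 residual degrees of freedom. Of 21 pairs of a class and a metallothionein 19 passed the filter on low counts, and 7 of them differed between methods (3 higher and 4 lower with conventional dissociation), against 13.6% of all class and gene pairs.

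Astrocyte Mt1 in Act-Seq libraries was 7910 CPM in saline 7, 11374 CPM in seizure 1 and 10982 CPM in seizure 2. In conventional libraries it was 11508 CPM after saline and 13949 CPM after seizure. The difference between methods was 0.49 ± 0.09 (edgeR adjusted p = 0.00432), where 1.04% of astrocyte genes differed. Astrocyte Mt2 was 2984, 5432 and 4197 CPM with Act-Seq and 4625 and 6382 CPM with conventional dissociation, a difference of 0.58 ± 0.11 (edgeR adjusted p = 0.00802). For both genes each conventional library lay above the Act-Seq library or libraries of its own treatment. Both calls were lost without saline 7 (edgeR adjusted p = 0.182 and 0.0872) or without the conventional saline library (0.198 and 0.128), and that of Mt1 with DESeq2 (0.0670). Astrocyte Mt3 was 1335, 1793 and 1396 CPM against 1472 and 1713 CPM and did not pass (0.19 ± 0.12, edgeR adjusted p = 0.627).

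In cells assigned to neurons Mt1 was 7727 CPM in saline 7, 7472 CPM in seizure 1 and 8482 CPM in seizure 2, but 296.1 and 829.3 CPM in the conventional saline and seizure libraries. Mt2 fell from 2332, 2853 and 2460 CPM to 57.1 and 245.6 CPM, and Mt3 from 1556, 1924 and 1547 CPM to 232.1 and 232.0 CPM. The differences were -4.01 ± 0.35 for Mt1 (edgeR adjusted p = 8.03e-13), -4.35 ± 0.34 for Mt2 (edgeR adjusted p = 4.87e-14) and -2.99 ± 0.26 for Mt3 (edgeR adjusted p = 1.03e-12). In the same fit 50.1% of neuron genes differed between methods, so a call is no mark of these genes. Astrocyte markers in the same cells summed to 15370, 14540 and 15830 CPM with Act-Seq and to 595.3 and 1362 CPM with conventional dissociation, while neuron markers summed to 3487, 5795 and 6025 CPM and to 28940 and 40220 CPM. Meg3, itself among these neuron markers, was at 1344, 3243 and 3556 CPM and at 16190 and 24730 CPM. Snap25, another of them, was at 641.2, 552.4 and 488.4 CPM and at 2004 and 1343 CPM. The part of astrocyte transcripts in the metallothionein differences was not tested. With only cells assigned by a clear margin the 3 neuron calls were lost (-1.21, -1.39 and -1.20, edgeR adjusted p = 0.251, 0.125 and 0.120).

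**Figure D5:**
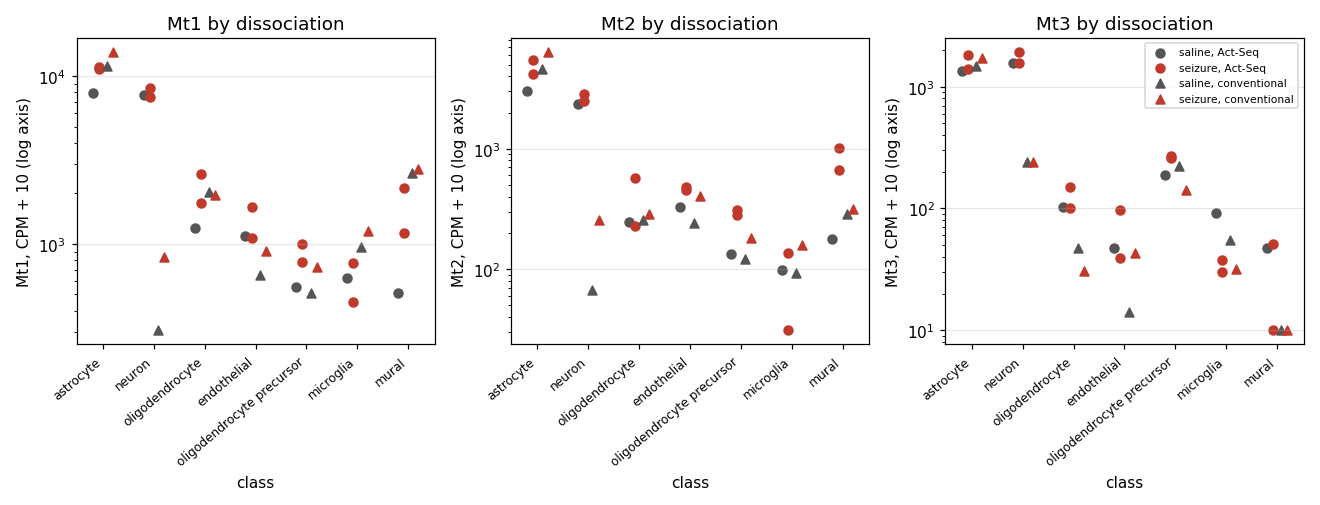
Level of Mt1, Mt2 and Mt3 as CPM + 10 on a log axis in the 5 libraries of the dissociation comparison, by assigned class; circles are Act-Seq and triangles conventional libraries, coloured by saline or seizure. Conventional neurons lie below Act-Seq neurons for the 3 genes (Mt1 at 296.1 and 829.3 CPM), and conventional astrocytes reach the highest Mt1 level of 13949 CPM.

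Mt1 in microglia was higher with conventional dissociation, at 942.8 and 1190 CPM against 620.6, 765.1 and 441.7 CPM with Act-Seq (0.96 ± 0.20, edgeR adjusted p = 0.00510; 3.21% of microglia genes differed). That call was lost with DESeq2 (adjusted p = 0.166) and with the authors' own classes for the seizure cells (0.57, edgeR adjusted p = 0.155). It was lost too without the conventional seizure library (0.81), which leaves 1 conventional library. With an interaction in the fit, the method term compared 1 conventional and 1 Act-Seq library, both of saline, and was 0.79 for this gene. Mt3 in oligodendrocytes was lower with conventional dissociation, at 37.2 and 20.7 CPM against 92.7, 139.8 and 90.1 CPM (-1.77 ± 0.34, edgeR adjusted p = 0.0222; 0.828% of their genes differed). Slc1a2 in these oligodendrocytes was 147.5 and 78.2 CPM against 471.5, 451.4 and 484.8 CPM, so an astrocyte transcript was lower alongside Mt3, and its part was not tested. The Mt3 call was lost with only cells assigned by a clear margin (edgeR adjusted p = 0.150) and without the conventional seizure library (-1.18), which leaves 1 conventional library. With an interaction in the fit, the method term covered the saline libraries only and was -1.17. In the few cells assigned as mural, Mt1 was 2655 and 2794 CPM with conventional dissociation and 500.0, 1156 and 2156 CPM with Act-Seq, without a call.

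The saline control of this table allows seizure to be compared with injected rather than naive mice. Its Act-Seq seizure libraries are the same as above. The seizure term also takes in the conventional seizure and saline libraries, with method in the fit. Mt2 in astrocytes was higher after seizure by 0.63 ± 0.11 (edgeR adjusted p = 0.0264), the single call among 19 pairs, against 0.043% of all pairs and 0.079% of astrocyte genes. It was lost without saline 7 (0.46, edgeR adjusted p = 0.506), without seizure 1 (0.51, edgeR adjusted p = 0.207) and with DESeq2 (0.162). Mt1 in astrocytes was higher by 0.44 ± 0.09 and did not pass (edgeR adjusted p = 0.0644). Pairs outside astrocytes that were called after seizure against naive had smaller log2 fold changes against saline, in assigned classes, and none passed. In mural cells they were 0.81 ± 0.63 for Mt1 and 1.34 ± 0.62 for Mt2. For Mt1 they were 0.105 ± 0.203 in microglia and 0.47 ± 0.22 in oligodendrocytes. In a fit with an interaction of seizure and method no metallothionein interaction passed, those of neurons being closest, at 1.58 ± 0.20 for Mt1 and 2.05 ± 0.26 for Mt2 (edgeR adjusted p = 0.0924 for both).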

How the data were processed

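The authors deposited raw UMI counts (whole numbers, genes by cells) in 3 tables (all cells, neurons, dissociation comparison); cell names carry the library and, in the first 2, the authors' class or neuron cluster. Per the submitters' processing notes, bcl2fastq 2.17.1.14 made base calls and STAR 2.5.0a aligned reads to mm10; no source used here gives the counting tool, the use of strand or the cell filters. Counts were summed per library and class (at least 10 cells) and fitted with edgeR 4.0.16 in R 4.3.3 (TMM scaling, filterByExpr, quasi-likelihood F-test), each class in 1 fit that holds the 4 Act-Seq groups, with Benjamini-Hochberg adjustment over all genes of a class and contrast. CPM are scaled to all UMIs of a library in a class; standard errors are the log2 fold change divided by the root of F. Dissociation cells were assigned by likelihood under the authors' class profiles (pseudocount 0.5). No doublet caller was run; leaving out the 5% of cells with most UMIs was tried. Single values were tested by exact permutation over libraries on log2(CPM + 10). Fits were tested on simulated counts: in astrocytes, over 10520 genes, 47% of genes changed by a log2 of 1 were recovered after seizure, 68% after immobilization and 77% after odor; in mural cells, over 1020 genes, 18%, 27% and 29%. Library depths were 116492 to 4309887 UMIs. The members and gene lists were chosen with earlier results of these data known. Genes named beyond the members are, per list and contrast, at most 4 with the smallest p past the threshold in astrocytes or endothelial cells, and the 5 genes of most like pattern.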

Additional observations from a re-analysis of the deposited data

Results flagged for a closer look

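Of 63 sets of 4 or 5 libraries tested for a library far from the others (by class, group and gene), 6 stood out, where chance alone would mark about 1 in 20. Naive 2 held 252 CPM of Mt2 in microglia (63 UMIs), with the next naive library at 107 CPM. Naive 3 held 224 CPM of Mt3 in microglia (35 UMIs), with the next at 72.1 CPM. In oligodendrocyte precursors naive 3 held 1090 CPM of Mt1 and 552 CPM of Mt3, with the next naive libraries at 555 and 292 CPM. Astrocyte markers in the precursors of naive 3 summed to 3175 CPM, against 1015 to 1488 CPM in the other naive libraries, and their part in these values was not tested. Immobilization 2 held 436 CPM of Mt2 in oligodendrocytes, with the next at 330 CPM, and immobilization 1 held 187 CPM of Mt2 in precursors, with the next at 132 CPM.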

How the results depend on the processing

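Numbers of called metallothionein pairs moved little after immobilization (4) and more in the other contrasts. After odor (2 calls) there were 5 with no low count filter, 0 with age as a covariate, and 1 with the authors' whole neuron class, which returns 151 cells to other classes. Seizure against immobilization (2 calls) gave 0 with age as a covariate and 1 with the whole neuron class. With at least 30 cells it gave 0, but the mural pairs could not be tested there. The seizure libraries held only 24 and 21 mural cells, so that 0 shows no loss of a call. Conventional against Act-Seq dissociation (7 calls) gave 3 with a correlation margin of 0.05 and 3 with all cells of a library summed, where only 3 pairs can be tested. Seizure against saline (1 call) gave 0 with DESeq2, 2 with no filter, 2 with the margin and 0 with all cells summed. It gave 2 with the authors' own classes for the seizure libraries, an alternative added after seeing the data. The fit with an interaction is left out here, since its seizure term covers only the Act-Seq libraries, with 1 saline library. The cause of these changes was not tested. Leaving out each library in turn gave 3 to 7 calls for seizure against naive (3 without seizure 1), 3 to 4 for immobilization, 0 to 3 for odor, 0 to 2 for seizure against immobilization, 5 to 7 for dissociation and 0 to 3 for seizure against saline. The order of classes (12 pairs past the threshold) gave 0 in naive libraries alone. The share of naive astrocytes with Mt1 (90.5%) was 97.8% at 1000 UMIs and 96.7% without thinning. No call changed direction under any alternative that was run.

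Deviations of astrocyte levels from their group means were weakly related between libraries with the same replicate number (18 pairs, r from -0.0599 to 0.173, 1 of them over 0.1). Between libraries with other numbers r ran from -0.173 to 0.0841 (64 pairs). Whether the numbers pair the libraries was not settled by this check, since the deviations of 2 seizure libraries mirror each other. With the replicate block there were 4 calls for seizure against naive, 4 for immobilization, 1 for odor and 2 for seizure against immobilization. With the block edgeR no longer called Mt1 in microglia (adjusted p = 0.405) and oligodendrocytes (adjusted p = 0.192) after seizure and Mt1 in astrocytes after odor (adjusted p = 0.0521).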

Other observations

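Over the mean log2 levels of 8 classes in naive libraries, among 8429 genes, the genes most like Mt1 were Papss2 (Pearson's r = 0.992), Mt2 (0.984), Mlc1 (0.979), 2310022B05Rik (0.979) and Itsn1 (0.975). Those most like Mt2 were Mlc1 (0.992), Gm5607 (0.988), Lhx2 (0.985), Glud1 (0.985) and Mt1. Those most like Mt3 were Nudt9 (0.99), Tuba4a (0.988), Aldh5a1 (0.987), Gabbr2 (0.985) and Srgap3 (0.985), and Mt3 had r = 0.929 with Mt1 and 0.903 with Mt2. Mlc1 codes for a membrane protein of astrocyte endfeet, and Aldh5a1 for an enzyme of GABA breakdown. These are descriptions over 8 class means, and the classes share their libraries.

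Naive 6, with 43 cells, entered no class comparison. Over all its cells it held 239 UMIs of Mt1, 76 of Mt2 and 37 of Mt3 among 116492 UMIs (0.205%, 0.0652% and 0.0318%), lower shares than in any other library of the all-cell table.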
